A study of Mus musculus with 18 samples.

Results

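The mRNAs of 6 lipoprotein genes, Apoa1, Apoa4, Apob, Apoc3, Apoc2 and Mttp, held 160 of the 18281 m5C sites found in the exons of protein-coding transcripts, and 25890 sites were listed in all. They are 6 of the 2630 protein-coding genes with a site. A site was counted for one of them when it lay in an exon, on the same strand, of a RefSeq transcript on the mm10 genome. The genes were selected on the number of sites they carry in these libraries, so that their being rich in sites is a description. RNA was bisulfite-treated, which turns unmethylated cytosine into uracil and leaves 5-methylcytosine (m5C) as cytosine, in 9 libraries from cultured cells labelled as neurons of the cerebral cortex of day 18 fetal C57BL/6 mice. The 3 control libraries came from untreated cells. In the OGD/R 1.5 h and OGD/R 3 h groups, of 3 libraries each, the cells spent 1.5 or 3 h without glucose in hypoxia and then 24 h in normal medium, a model of ischemia followed by reperfusion. Nothing in the labels says whether replicates were separate cultures or litters.

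Apolipoproteins are the proteins that wrap fat and cholesterol into particles that blood can carry. Enterocytes of the small intestine and hepatocytes build the large particles around 1 molecule of apolipoprotein B, onto which the microsomal triglyceride transfer protein, encoded by Mttp, loads lipid in the endoplasmic reticulum. The smaller apolipoproteins join the surface of the particle and steer the enzymes that later unload it. Brain has its own lipoproteins, built mainly around apolipoprotein E from glia, and these genes are known for their expression in intestine, liver and yolk sac rather than in neurons.

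The label was therefore compared with marker genes. Apart from the label, the study identified its primary neurons by staining for β-III tubulin, with GFAP for astrocytes. The marker lists were chosen with earlier results of these data known, so that the counts are a description and no test of the label. None of 20 neuronal markers, among them Tubb3, Map2, Rbfox3, Dcx, Snap25 and Syt1, had a site in any library, and 1 of 10 glial markers did (Aldh1l1, with 3 sites). All 15 markers of small intestinal absorptive epithelium had at least 1 over the 9 libraries, including Anpep with 61 sites, Slc5a1 and Muc13 with 39 each, Vil1 with 34 and Lct with 23. The fewest were in Sis (2) and Cdx2 (1), both in OGD/R 3 h alone. By group, 12 of the 15 had a site in control, 12 in OGD/R 1.5 h and 14 in OGD/R 3 h. None of the 11 hepatocyte markers and none of the 8 visceral endoderm markers that could be looked up had one. Of all 21774 protein-coding genes, 12.1% had a site over the 9 libraries, 8.42% in control, 8.09% in OGD/R 1.5 h and 6.71% in OGD/R 3 h. A gene without a listed site may be unexpressed, uncovered or unmethylated, since the files list only sites past the study's limits, so that 0 sites sets no upper limit on methylation or expression.

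The score in the files grows with the number of reads and with the methylation level of a site together, and it ends at 1000, so that a high score can stand for deep coverage or for a high level. Read depth is unknown, and libraries held between 5423 and 7772 sites, of which 3544 to 5302 lay in mRNAs. For control and for OGD/R 3 h, replicates differed in coverage by less than the sampling noise over the part of the study's own site list that was held. Each group was for this reason taken as 1 sample, OGD/R 1.5 h included, although no coverage was held for it, and SDs and ranges describe the spread between libraries, with no test between groups.

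Sequences around the sites called most often in each mRNA are shown first, because those called in all 9 libraries have scores for every group. Each sequence runs 5′ to 3′ over 21 bases of the GRCm38 (mm10) genome as held by RefSeq, on the strand of the gene, with the called cytosine in capitals. The number after the gene is the distance in nt of that cytosine from the first base of the start codon. The first 4 were called in all 9 libraries, Mttp 2416 in 6 and the last 2 in 3, and the window of Apoc2 209 reaches into the neighbouring intron.

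Apoa1 430, codon 144, chr9:46230028-46230048, plus strand: aaggtggcgcCtctgggcgcc

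Apoa4 719, codon 240, chr9:46242812-46242832, plus strand: agatggagggCctggccttcc

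Apoa4 885, codon 296, chr9:46242978-46242998, plus strand: gaacaggcagCtggagcagca

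Apob -46, upstream of the start codon, chr12:7977723-7977743, plus strand: ggggctaggcCcgtggccagg

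Mttp 2416, codon 806, chr3:138092662-138092682, minus strand: agagcggagaCagaggctggg

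Apoc3 7, codon 3, chr9:46234696-46234716, minus strand: gccatgcagcCccggacgctc

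Apoc2 209, codon 70, chr7:19671835-19671855, minus strand: tctccagggaCatgtacagca

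Control libraries held 47, 50 and 44 sites in the 6 mRNAs, OGD/R 1.5 h libraries 21, 24 and 23, and OGD/R 3 h libraries 59, 64 and 66. These ranges did not overlap, and the groups averaged 47.0 ± 3.00, 22.7 ± 1.53 and 63.0 ± 3.61 sites (mean ± SD, n = 3 libraries). OGD/R 1.5 h thus had 0.482 times the sites of control and OGD/R 3 h 1.34 times, while the sites of all mRNAs stood at 0.909 and 1.24 times control. Against all mRNA sites of the same library, the 6 mRNAs took 1.14 to 1.19% in control, 0.593 to 0.666% in OGD/R 1.5 h and 1.11 to 1.38% in OGD/R 3 h, so that on this scale control and OGD/R 3 h overlapped and OGD/R 1.5 h stayed below both. The 15 intestinal markers, which share no gene with the 6, were in the same order, with 66 to 71 sites per library in control, 42 to 50 in OGD/R 1.5 h and 99 to 113 in OGD/R 3 h. Sites of all mRNAs were in that order too, without overlap. They numbered 3856 to 4203 per library in control, 3544 to 3781 in OGD/R 1.5 h and 4769 to 5302 in OGD/R 3 h. The part of the intestinal markers in the result was not tested.

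The genes took different shares of these totals. Apoa1 and Apoa4 together gave 81.8 to 87.2% of the sites of a control library, 66.7 to 78.3% in OGD/R 1.5 h and 50.8 to 57.6% in OGD/R 3 h. Apob, Apoc3 and Mttp gave 10.6 to 18.2%, 17.4 to 25% and 42.4 to 49.2%. Between control and OGD/R 3 h, 3 of the 6 genes, Apob, Apoc3 and Mttp, had more sites in every OGD/R 3 h library than in any control library, as did 18.2% of the 2288 genes with a site in either group. Apoa4 had fewer, as did 18.8% of them. In OGD/R 1.5 h against control, Apoa1 and Apoa4 had fewer sites without overlap (15.3% of 2352 genes) and no gene of the 6 had more (8.42%). Between the deprived groups, Apoa1, Apob, Apoc3 and Mttp had more sites in every OGD/R 3 h library than in any OGD/R 1.5 h library (19.6% of 2204 genes) and none had fewer (13.4%).

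**Figure D1:**
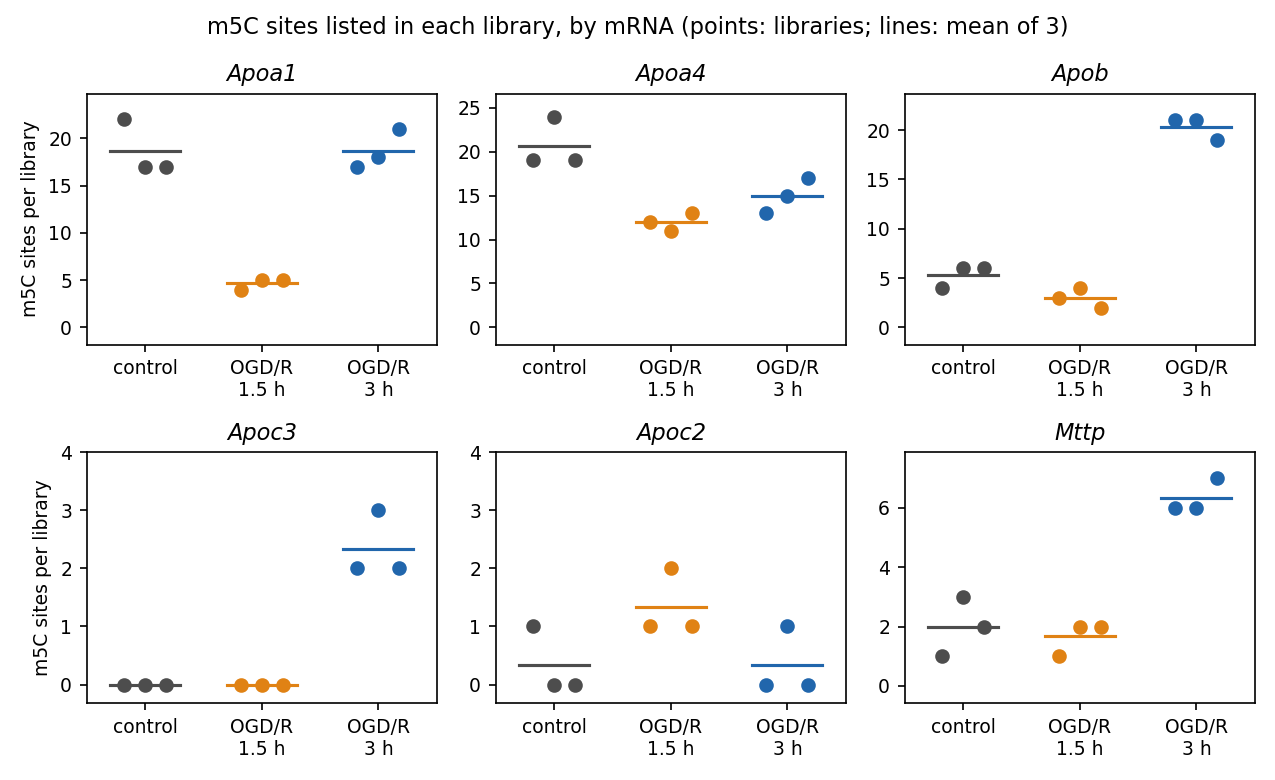
Number of m5C sites listed in each library (vertical axis, sites per library, one scale per panel) for the 6 mRNAs by group; points are libraries and lines the mean of 3. Apob stood at 2 to 6 sites in the control and OGD/R 1.5 h libraries and at 19 to 21 in OGD/R 3 h, whereas Apoa1 stood at 4 or 5 in OGD/R 1.5 h and at 17 to 22 in the other groups.

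Apob encodes the large structural protein of chylomicrons and very low density lipoproteins. Its transcript (NM_009693.2, chr12:7977677-8016839, plus strand) has 29 exons and 13909 nt, and 45 of its cytosines were called, 14.2 per 1000 cytosines. Control libraries held 4, 6 and 6 of these sites, OGD/R 1.5 h libraries 3, 4 and 2, and OGD/R 3 h libraries 21, 21 and 19. The OGD/R 3 h libraries lay far above the others, at 3.81 times the control mean (20.3 ± 1.15 against 5.33 ± 1.15) and 6.78 times the OGD/R 1.5 h mean of 3.00 ± 1.00. Without the sites that had another within 10 nt, each control library held 1 site and the OGD/R 3 h libraries 15, 19 and 16, or 16.7 times control. That filter removed all control sites in exon 1, which lie close together, Apob -46 among them. Among the genes of a library ordered by their sites, Apob was at rank 114 to 221 in control, 195 to 441 in OGD/R 1.5 h and 31 to 39 in OGD/R 3 h.

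The position of the Apob sites differed as well. In control, 7 of 9 distinct sites lay in exon 1, which holds the 5′ end of the message and the start codon, and the other 2 lay in exons 15 and 21. In OGD/R 3 h, exon 1 held 8 of 36 sites, and the remaining 28 were spread over 10 further exons from exon 4 to exon 29. Per library, exon 1 held 3, 5 and 5 sites for control and 6, 5 and 7 for OGD/R 3 h, ranges that overlap. Outside exon 1, each control library held 1 site, the OGD/R 1.5 h libraries 1, 3 and 1, and the OGD/R 3 h libraries 15, 16 and 12. Most of the difference between the groups thus lay in the body of the message. Exon 26, at 7467 nt the longest, held 12 sites in OGD/R 3 h, with 6, 8 and 4 per library, and none in the other groups. In number, 32 of the 45 Apob sites (71.1%) were called in OGD/R 3 h alone, beside 33.2% of all mRNA sites.

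Most of the downstream Apob sites were seen in few libraries. Of the 28 in OGD/R 3 h, 18 were called in 1 library and 5 in all 3. Their scores had a median of 69, 124.5 and 67 in the 3 libraries and ran from 22 to 674. The 5 called in all 3 libraries are printed to show where the sites of the message body lie, in exons 10, 26, 26, 28 and 29, and they were chosen after their values were seen.

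Apob 1191, codon 398, chr12:7988731-7988751, plus strand: cctccagtggCtgaaaactga

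Apob 6045, codon 2016, chr12:8007555-8007575, plus strand: acgggctgacCtctctgggct

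Apob 10607, codon 3536, chr12:8012117-8012137, plus strand: ttgatggtatCtggaacgttg

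Apob 11958, codon 3987, chr12:8014084-8014104, plus strand: gagtgtggagCtgaatgtcta

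Apob 13672, 3′ untranslated region, chr12:8016695-8016715, plus strand: gaaccaagacCttcaaagcag

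Of these, Apob 1191 was the only one also called outside OGD/R 3 h, in 2 OGD/R 1.5 h libraries with scores of 772 and 63, beside 63, 431 and 193 in OGD/R 3 h. At Apob 10607 the OGD/R 3 h scores were 91, 192 and 162. Apob 6045 scored 111, 409 and 58.

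The site at Apob -46, in the 5′ leader, was called in all 9 libraries. Its scores were 136, 843 and 1000 for control, 483, 714 and 653 for OGD/R 1.5 h and 111, 172 and 370 in OGD/R 3 h. Every OGD/R 3 h score lay below every OGD/R 1.5 h score, whereas control spanned both. The neighbouring cytosines at -52 and -47 were called in all 3 control libraries, with scores of 53 to 90, and in none of the deprived groups. In OGD/R 3 h, all 3 libraries had sites at -29, -4, 59 and 65, of which -29 alone was seen in control, in 1 library with a score of 4. The OGD/R 3 h scores were 14, 16 and 81 at -29 and 61, 9 and 27 at -4. At 59 they were 33, 7 and 9, and at 65 they were 8, 19 and 3, so that several lay under 10.

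**Figure D2:**
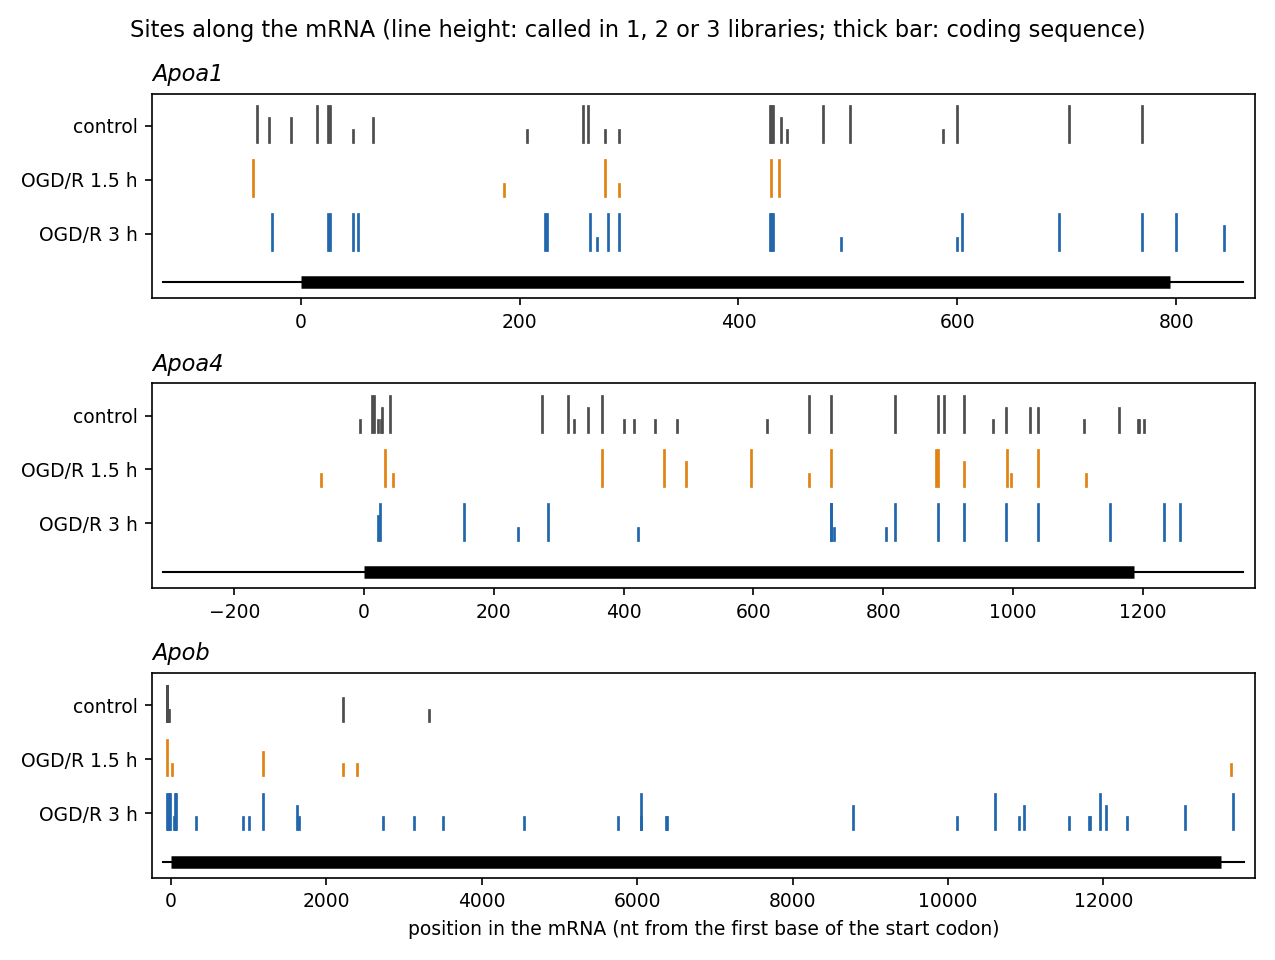
Position of the sites along the mRNAs of Apoa1, Apoa4 and Apob (horizontal axis, nt from the first base of the start codon) in each group; the height of a line gives the number of libraries, 1 to 3, that called the site, and the thick bar is the coding sequence. Control sites of Apob stand at the left end and at 2 places further on, and those of OGD/R 3 h run along the whole message.

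Apoa1 encodes apolipoprotein A-I, the main protein of high density lipoprotein and the activator of the enzyme that esterifies its cholesterol. Its mRNA (NM_009692.4, chr9:46228630-46230469, plus strand, 4 exons, 988 nt) had 39 sites, or 139.8 per 1000 cytosines, against a median of 4.48 over the 2630 genes with a site. Only 13 genes had a higher density. Control libraries held 22, 17 and 17 sites, OGD/R 1.5 h libraries 4, 5 and 5, and OGD/R 3 h libraries 17, 18 and 21. Control and OGD/R 3 h had the same mean of 18.7 (SD 2.89 and 2.08), and OGD/R 1.5 h, at 4.67 ± 0.577, had 0.25 times that number. Without the sites that had another within 10 nt, control libraries held 12, 9 and 8, OGD/R 1.5 h libraries 2, 3 and 3, and OGD/R 3 h libraries 6, 7 and 6. On that count OGD/R 3 h lay below control without overlap, and its difference from OGD/R 1.5 h was 3.67 sites in place of 14. Apoa1 was at rank 6 to 17 by sites in control, 144 to 187 in OGD/R 1.5 h and 31 to 48 in OGD/R 3 h.

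An equal number of Apoa1 sites in control and OGD/R 3 h did not stand for the same cytosines. Control had 24 distinct sites and OGD/R 3 h had 21. Of these, 14 were called in control alone and 12 in OGD/R 3 h alone, with 2 sites in all 3 groups, 7 in control and OGD/R 3 h, 1 in control and OGD/R 1.5 h and 3 in OGD/R 1.5 h alone. Among sites called in all 3 libraries of a group, 7 of 14 for control and 9 of 17 for OGD/R 3 h were in no library of another group. These shares, 50% and 52.9%, were below those of all mRNA sites, 56.5% and 72.5%. Scores at such sites were not low: over the 7 control sites they had a median of 628, and over the 9 of OGD/R 3 h one of 988, where 4 sites stood at 1000 in all 3 libraries. Such a site can be missing elsewhere because its level or its coverage fell short of the limit, which the files cannot tell apart.

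Sites of different groups lay close to each other in Apoa1. Of its 29 sites called in 1 group only, 19 had a site of another group within 10 nt, and in Apoa4 this held for 21 of 45, in a message with 116.1 sites per 1000 cytosines. Over the 6 mRNAs it held for 34.8% of such sites, beside 37.7% over all mRNAs. The 6 mRNAs held 9 pairs of adjacent called cytosines. Of their 132 sites called in 1 group only, 6.82% had a site of another group at the next base, beside 8.15% over all mRNAs. As examples, 3 pairs are printed here; they were chosen after their values were seen, and Apoa4 719 of one pair is given above. Other pairs also differed between groups, such as Apoa4 990, called in control and OGD/R 3 h, and Apoa4 991, called in OGD/R 1.5 h alone.

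Apoa1 263, codon 88, chr9:46229861-46229881, plus strand: aacggctgggCccattgactc

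Apoa1 264, codon 89, chr9:46229862-46229882, plus strand: acggctgggcCcattgactcg

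Apoa4 720, codon 241, chr9:46242813-46242833, plus strand: gatggagggcCtggccttcca

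Apoa4 924, codon 309, chr9:46243017-46243037, plus strand: cactgtggagCccatgggaga

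Apoa4 925, codon 309, chr9:46243018-46243038, plus strand: actgtggagcCcatgggagag

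Apoa1 263 was called in the 3 control libraries with scores of 628, 552 and 735 and in no other. The next base, Apoa1 264, was called in the 3 OGD/R 3 h libraries, at 1000 in each, and in no other. Apoa4 720 was likewise called in the 3 OGD/R 3 h libraries alone (670, 1000 and 787), directly after Apoa4 719, which all 9 libraries called. At the last pair, Apoa4 925 was called in the 3 control libraries with scores of 79, 423 and 95 and in 2 OGD/R 1.5 h libraries, and Apoa4 924 in the 3 OGD/R 3 h libraries with 694, 409 and 599.

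Apoa4 encodes apolipoprotein A-IV, which enterocytes secrete on chylomicrons after a meal with fat. Its mRNA (NM_007468.2, chr9:46240844-46243458, plus strand, 3 exons, 1666 nt) had the most distinct sites of the 6, 54, and only 15 genes had a higher density. Control libraries held 19, 24 and 19 sites, OGD/R 1.5 h libraries 12, 11 and 13, and OGD/R 3 h libraries 13, 15 and 17. Control lay above both deprived groups without overlap (20.7 ± 2.89 against 12 ± 1 and 15 ± 2), and the deprived groups touched at 13. The difference from OGD/R 3 h rests on sites seen in few control libraries, since control had 12 sites called in all 3 libraries and OGD/R 3 h 13, and without the sites that had another within 10 nt control touched or overlapped both deprived groups. By sites, Apoa4 was at rank 4 to 12 in control, 34 to 44 in OGD/R 1.5 h and 44 to 68 in OGD/R 3 h. In control 23 of its 32 distinct sites were found in that group alone, beside 4302 of 6944 over all mRNAs. Of the 32, 14 (43.75%) were in a single library, beside 53.3% over all mRNAs. In OGD/R 3 h, 13 of 18 (72.2%) were called in all 3 libraries, beside 30.7% over all mRNAs.

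Apoa1, Apoa4 and Apoc3 are neighbours in one cluster on chromosome 9. Apoc3 encodes apolipoprotein C-III, an inhibitor of lipoprotein lipase, and Apoc2 apolipoprotein C-II, the activator of the same enzyme. The Apoc3 mRNA (NM_023114.4, chr9:46233050-46235299, minus strand, 4 exons, 527 nt) had 4 sites, with 2, 3 and 2 in the OGD/R 3 h libraries and none in the other 6. Scores were low, at 11, 20 and 7 for the site in codon 3, the single one called in all 3 libraries, and at 5 to 124 for the other 3. With sites scored under 10 removed, OGD/R 3 h replicate 3 had none, so that this separation rests on low scores in that library.

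The Apoc2 mRNA (NM_001277944.1, chr7:19671579-19677941, minus strand, 5 exons, 727 nt) had 3 sites within 25 nt of each other, which a read-through transcript of Apoc4 and Apoc2 also holds, so that the gene of origin is uncertain. Control libraries held 1, 0 and 0, OGD/R 1.5 h libraries 1, 2 and 1, and OGD/R 3 h libraries 0, 1 and 0. The groups overlapped, and no Apoc2 site was called in all libraries of any group.

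Mttp encodes the lipid-loading subunit of the transfer protein. Its mRNA (NM_008642.3, chr3:138089855-138131653, minus strand, 18 exons, 4238 nt) had 15 sites, with 1, 3 and 2 in the control libraries, 1, 2 and 2 in OGD/R 1.5 h and 6, 6 and 7 in OGD/R 3 h. OGD/R 3 h lay above both other groups without overlap, at 3.17 times the control mean and 3.8 times that of OGD/R 1.5 h. Its most frequent site, Mttp 2416, was called in 1 control library (164), in all OGD/R 1.5 h libraries (157, 275 and 130) and in 2 OGD/R 3 h libraries (69 in both). The sites called in all OGD/R 3 h libraries were Mttp 907, with scores of 286, 127 and 77, and Mttp 3109 in the 3′ untranslated region, with 30, 35 and 76, and no other group called either. P4hb, the protein disulfide isomerase that forms the second subunit, had 6, 7 and 11 sites for control, 5, 6 and 4 for OGD/R 1.5 h and 13, 11 and 12 in OGD/R 3 h, a range above that of OGD/R 1.5 h that touched control at 11.

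Over the 6 mRNAs, a site was called again in the other libraries of its group more often than over all mRNAs, by the most in Apoa1 and Apoa4. In control 29 of 71 distinct sites (40.8%) were called in all 3 libraries, in OGD/R 1.5 h 15 of 33 (45.5%) and in OGD/R 3 h 43 of 91 (47.3%), beside 26.4%, 17.8% and 30.7% over all mRNA sites. In the same order the share was 58.3%, 66.7% and 81.0% in Apoa1 and 37.5%, 56.3% and 72.2% in Apoa4. In OGD/R 3 h the other 4 genes stood below the share of all mRNAs, with Apob at 27.8%, Apoc3 at 25%, Mttp at 18.2% and Apoc2 at 0. In control, Apob stood at 33.3% and Mttp and Apoc2 at 0, and in OGD/R 1.5 h Apob stood at 16.7%, Mttp at 33.3% and Apoc2 at 0. The median score of the 6 mRNAs, 115 to 193 per library, was also higher than that of all mRNA sites, 7 to 12, and the part of coverage in the recurrence was not tested. Any 2 libraries of the same group shared 49.2 to 64.0% of the sites called in either. Libraries of control and OGD/R 3 h shared 11.96 to 16.5%, control and OGD/R 1.5 h 11.5 to 14.8%, and the deprived groups 7.79 to 8.97%. Over all mRNA sites, 2 libraries of a group shared 29.6 to 45.1%, and the same 3 pairs of groups shared 6.92 to 7.37%, 10.3 to 10.8% and 6.60 to 7.28%.

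**Figure D3:**
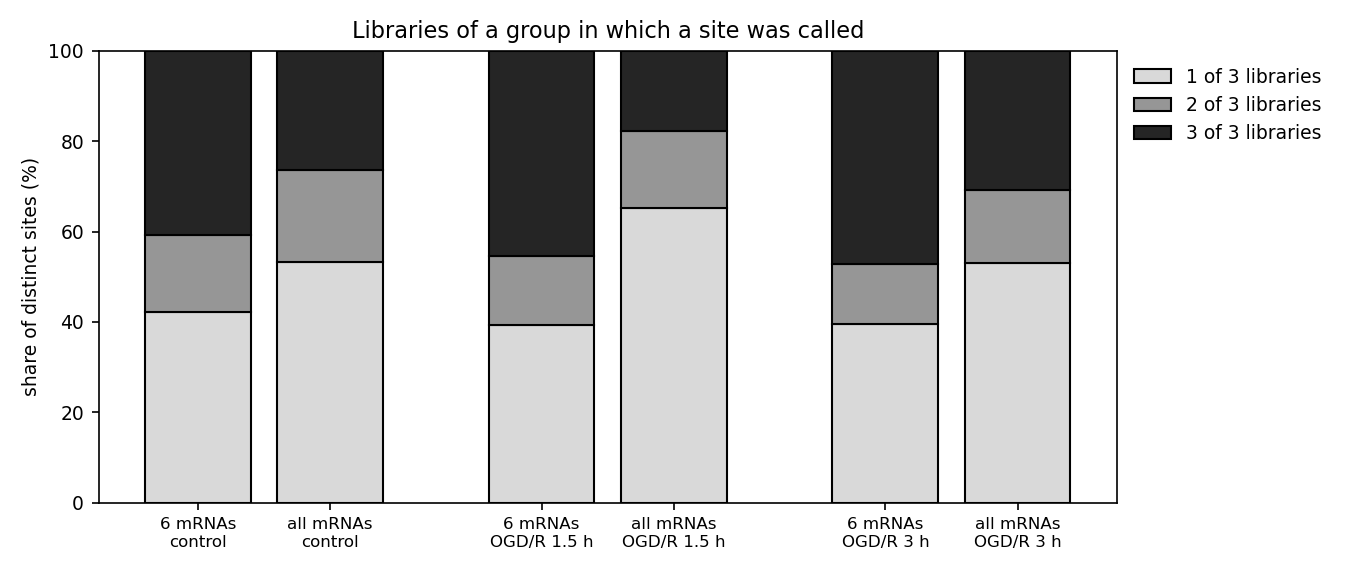
Share of the distinct sites of a group (vertical axis, %) that were called in 1, 2 or 3 of its libraries, for the 6 mRNAs and for all mRNAs. The darkest part, sites called in all 3 libraries, made up 40.8 to 47.3% in the 6 mRNAs and 17.8 to 30.7% in all mRNAs.

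Few cytosines were shared by the groups. Of the 160 sites, 7 (4.38%) were found in all 3 groups, beside 3.68% of all mRNA sites, and 44 were found in control alone, 19 in OGD/R 1.5 h alone and 69 in OGD/R 3 h alone. These are 27.5%, 11.9% and 43.1% of the sites, beside 23.5%, 24.05% and 33.2% over all mRNA sites. Control and OGD/R 3 h shared 21 sites, which are 29.6% of those of control and 23.1% of those of OGD/R 3 h (20.5% and 17.0% over all mRNA sites). OGD/R 1.5 h shared 13 of its 33 sites with control (39.4%) and 8 with OGD/R 3 h (24.2%), beside 26.4% and 21.5% over all mRNA sites.

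Scores could be compared at the sites called in every library of both groups. For OGD/R 3 h against control these were 10, of which 3 scored higher in every OGD/R 3 h library than in any control library (10.7% of 253 such mRNA sites) and none lower (15.4%). Apoa1 25, in codon 9, scored 16, 36 and 27 in control and 158, 97 and 97 in OGD/R 3 h, a difference of 2.19 in mean log2 score. Apoa1 27 scored 195, 64 and 15 against 387, 175 and 171, which overlap, with a difference of 1.98. Apoa1 430 scored 856, 811 and 533 for control, 751, 863 and 958 for OGD/R 1.5 h and 1000 in all OGD/R 3 h libraries, so that its difference of 0.48 from control is cut off by the cap. The third site without overlap was Apoa1 432, at 716, 720 and 810 in control and 1000, 1000 and 821 in OGD/R 3 h.

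Mean log2 scores lower in OGD/R 3 h than in control were found at 2 of the 10 sites, Apob -46 (-1.34) and Apoa4 719 (-0.04), both with overlap. Apoa4 885 stood at 1000 in all 9 libraries, and Apoa4 818 and Apoa1 769 stood at 1000 in all 6 libraries of control and OGD/R 3 h, so that no difference could be seen there. For OGD/R 1.5 h against control, 5 sites could be compared. None scored higher without overlap (9.15% of 295 mRNA sites) and Apoa4 719 scored lower (13.6%), at 445, 551 and 405 against 708, 1000 and 941. For OGD/R 3 h against OGD/R 1.5 h, 3 of 5 sites scored higher (12.3% of 203), and Apob -46 scored lower (15.3%). The largest of these differences was at Apoa4 1038, with 98, 111 and 50 in OGD/R 1.5 h and 576, 286 and 434 in OGD/R 3 h.

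**Figure D4:**
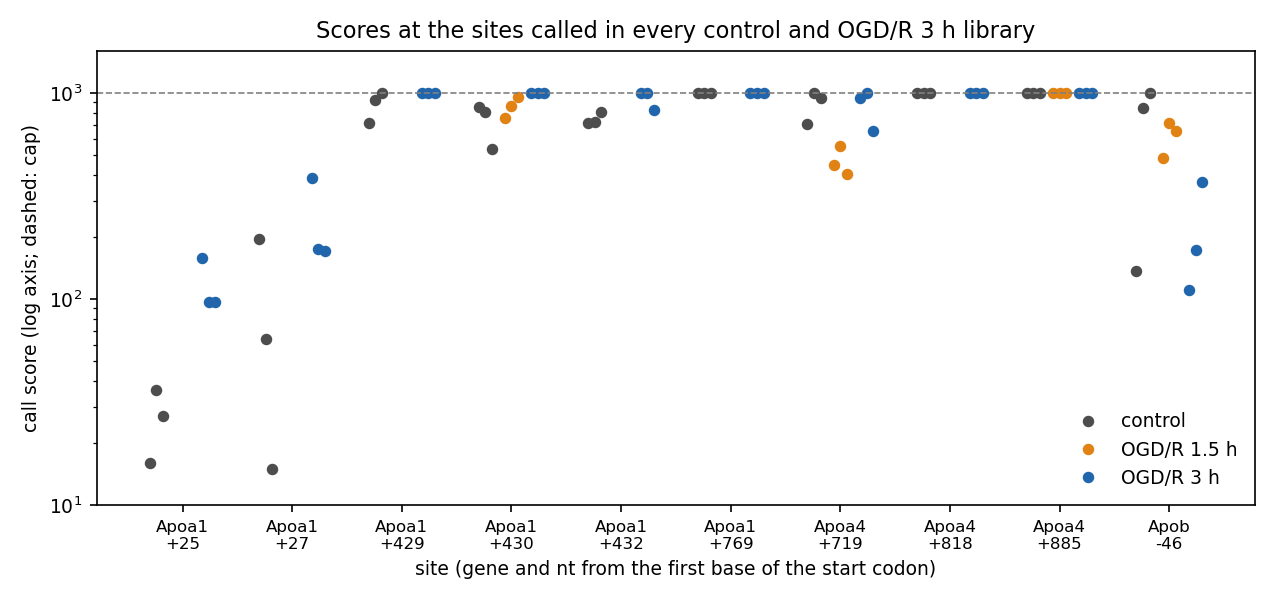
Call scores (vertical axis, log scale, with the cap of 1000 dashed) at the 10 sites called in every control and OGD/R 3 h library, named by gene and by nt from the first base of the start codon; points are libraries, and OGD/R 1.5 h points are drawn where the site was called. The scores at Apoa1 25 lie at 16 to 36 in control and at 97 to 158 in OGD/R 3 h, and most sites of Apoa1 and Apoa4 stand at or near the cap.

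Over all called sites of a gene, the cap weighed differently on the groups. In Apoa1 8 of 56 calls stood at 1000 in control, 5 of 14 in OGD/R 1.5 h and 29 of 56 in OGD/R 3 h. Of all mRNA sites of a library, 1.51 to 1.71% stood there in control, 1.48 to 1.81% in OGD/R 1.5 h and 3.47 to 3.81% in OGD/R 3 h. The median Apoa4 score was 96 to 152.5 in control, 92 to 191 in OGD/R 1.5 h and 430 to 576 in OGD/R 3 h, which lay above both. The median of all mRNA sites was also highest in OGD/R 3 h, at 11 to 12 beside 9 to 10 in control and 7 in OGD/R 1.5 h. In Apob the OGD/R 3 h medians of 58 to 94 overlapped those of control, 53.5 to 112. Over the 6 genes together, the medians of control (152.5 to 193) and OGD/R 3 h (115 to 162) overlapped.

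By region, the 6 mRNAs had most sites in the coding sequence more than 100 nt from the start and stop codons. This region held 59.6, 56.0 and 54.5% of the sites in the control libraries and 57.6, 59.4 and 62.1% in OGD/R 3 h, which overlap, and 71.4, 75.0 and 69.6% in OGD/R 1.5 h, above both. OGD/R 1.5 h was also the highest over all mRNA sites, at 54.2 to 58.3% beside 47.4 to 52.0% and 42.3 to 47.9%. The start codon region, within 100 nt of the codon, held 31.9 to 34.1% in control, 16.7 to 21.7% in OGD/R 1.5 h and 20.3 to 24.2% in OGD/R 3 h. Control thus lay above both deprived groups in the 6 mRNAs. Over all mRNA sites the start codon region held 28.0% ± 1.87 in control, 23.4% ± 1.73 in OGD/R 1.5 h and 31.0% ± 2.38 in OGD/R 3 h, so that control lay above OGD/R 1.5 h there too (26.01 to 29.7% against 21.6 to 25.1%) and overlapped OGD/R 3 h. Per 1000 cytosines of the 6 mRNAs pooled, the start codon region was the densest in each group. It held 61.8 sites in control, 19.7 in OGD/R 1.5 h and 47.8 in OGD/R 3 h. The rest of the coding sequence, where Apob held 3023 of the 4056 cytosines, had 9.62, 5.42 and 14.5. In Apob the start codon region was denser than that rest in each group. In Apoa1 it was not in OGD/R 1.5 h (16.4 against 31.6), nor in Apoa4 in OGD/R 3 h (33.3 against 51.6). In Mttp it was denser in OGD/R 1.5 h alone, and in Apoc3 and Apoc2 in no group. No site lay in the 5′ untranslated region further than 100 nt from the start codon, and 3′ untranslated regions held 2, 1 and 5 distinct sites. None lay in an intron of the 6 genes or on their opposite strand.

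**Figure D5:**
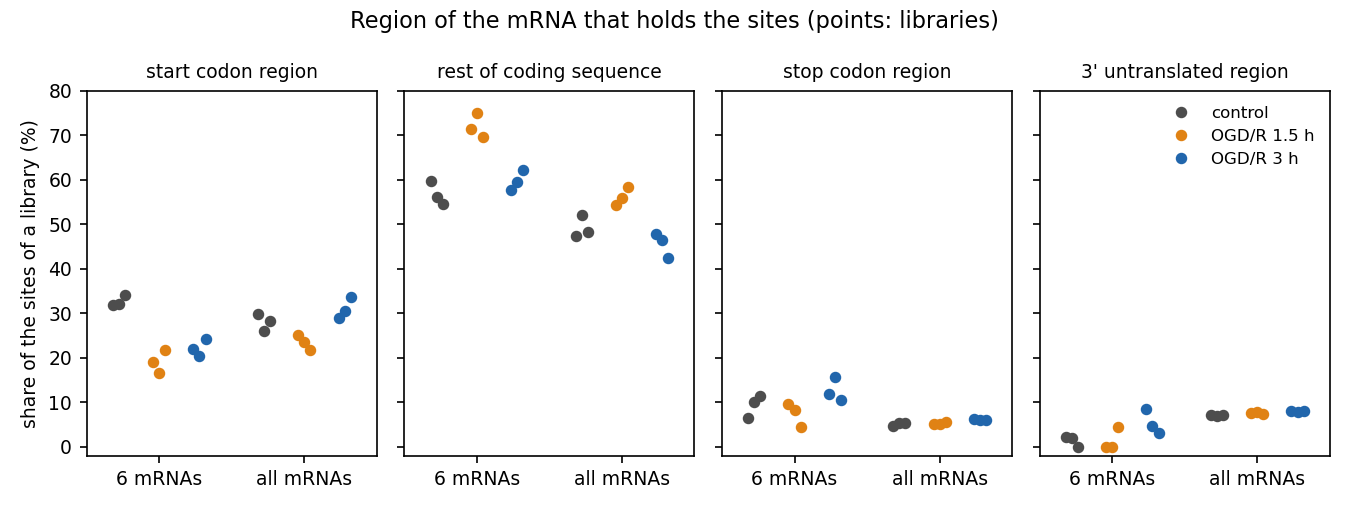
Share of the sites of each library (vertical axis, %) in 4 regions of the mRNA, for the 6 mRNAs and for all mRNAs, with 1 point per library. In the 6 mRNAs the start codon region stands at 31.9 to 34.1% in control and at 16.7 to 24.2% in the deprived groups.

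The bases around the sites were richer in G than those around all cytosines of the same messages, called ones included. Windows of sites were taken from the genome and can reach into an intron, those of all cytosines from the spliced message. Within 10 bases on either side, G made up 36.4% around the Apoa1 sites and 28.0% around all Apoa1 cytosines, 34.6% and 28.2% in Apoa4, 32.1% and 20.3% in Apob, and 32.3% and 23.0% in Mttp. In CHG context, where H is A, C or U, lay 70 of the 160 sites (43.8%) and 24.1% of the 5203 cytosines. The CG context held 11.9% of the sites, 6.36% of the cytosines and 22.4% of all mRNA sites. Apob gave 3173 of the cytosines, so that the genes weigh differently on the pooled shares. By gene, the CHG share was higher at the sites than over the cytosines in all but Apoc2. The CG share was higher in Apoa4, Apob, Apoc2 and Mttp, and lower in Apoa1 (5.13% against 13.8%) and Apoc3. The letters CNGGG, with the called cytosine first, resemble the surroundings of cytosines modified by the methyltransferase NSUN2, and were searched on the strand of the gene. They were found at 9 of the 160 sites (5.63%), 5 of them in Apoa1, beside 1.63% of the cytosines and 3.28% of all mRNA sites. Apob and Mttp also had a higher share at the sites than over their cytosines. In Apoa4 it was lower (1.85% against 2.19%), and no site of Apoc3 or Apoc2 matched. CTCCA, known from sites of NSUN6, was found at 1 site and at 0.903% of the cytosines. These are matches of letters only, and sites close together share their surroundings.

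Other genes of lipoprotein metabolism were taken from lists by role. Among 11 other apolipoproteins, 2 had a site. Apoe, the main apolipoprotein of brain, had 4, 5 and 3 sites in the control libraries, 2 in each OGD/R 1.5 h library and 2, 2 and 1 in OGD/R 3 h, which is lower than in control without overlap in both, as were 15.3% and 18.8% of the genes compared. Apof had 2, 3 and 3, then none, then 1 in each. For lipoprotein assembly and secretion, 14 of 22 genes had a site, and their sum was 62 to 73 sites per library in control, 52 to 58 in OGD/R 1.5 h and 80 to 89 in OGD/R 3 h. The chaperone Canx had 21 to 22, 18 to 21 and 23 to 34 sites, and Dgat1, which makes triglyceride, had 21, 17 and 19, then 13, 10 and 10, then 18, 16 and 20. Dgat1 thus had the order of Apoa1, lowest in OGD/R 1.5 h without overlap, as 15.3% of genes were against control and 19.6% against OGD/R 3 h. Among the other genes with at least 3 distinct sites, Sec23a had 21, Surf4 17, Pdia3 22, Hspa5 14, Sort1 7, Mogat2 6, Soat2 4 and Preb, Mia2 and Mia3 3 each.

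For uptake of lipid by the enterocyte, 5 of 8 genes had a site, namely the fatty acid transporter Slc27a4 (35 distinct sites), the fatty acid binding proteins Fabp2 (13) and Fabp1 (6), the cholesterol transporter Npc1l1 (7) and Acsl5 (5). Fabp1 had 4 sites in each control library, none in OGD/R 1.5 h and 2, 1 and 2 in OGD/R 3 h. Among the genes for handling in plasma and for receptors, Lrp1, a receptor widely expressed in brain and elsewhere, had 25 distinct sites and Lpl, which encodes lipoprotein lipase, had 1. Among the 3 genes that edit Apob mRNA in intestine, Rbm47 had 4 sites, and Apobec1 and A1cf none. Of 9 transcription factors, 4 had a site, with 11 in Hnf4a, 9 in Creb3l3, 5 in Srebf2 and 1 in Cdx2. These counts of genes cover all 9 libraries, in which 12.1% of the 21774 protein-coding genes had a site.

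Among 116 genes with at least 60 calls, those whose calls were divided over the 9 libraries most like those of the 6 mRNAs together were Epcam, Atp5b, Pfn1, Myh9 and Ckmt1. The measure was the sum of the absolute differences between the shares of the libraries, divided by 2, and it was 0.0488, 0.0505, 0.0640, 0.0678 and 0.0712. Epcam, an adhesion molecule of epithelial cells, had 9, 8 and 6 sites for control, 4, 4 and 3 for OGD/R 1.5 h and 8, 10 and 11 in OGD/R 3 h. It is one of the 15 intestinal markers above.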

How the data were processed

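Bisulfite-treated RNA was measured in 9 libraries, 3 of each group, and the 9 libraries labelled mock were not analysed here. After trimming with Cutadapt, the authors mapped reads on mm10 by meRanGh and called m5C per library by meRanCall, where a credible site needs a level of 0.1 or more and 10 or more reads. The submitters' processing notes name CASAVA 1.8, cutadapt 1.9.3 and STAR. The score deposited by the authors is 10 times the call score, cut to its whole part and capped at 1000, with no normalization for depth, so that neither level nor coverage can be read from it.

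Sites were placed on RefSeq transcripts of GRCm38.p6 with Python 3.11.15 and pysam 0.24.0, the genome index was made by samtools 1.23.1 and plots by matplotlib 3.10.9. Positions count from 1. For each gene the curated transcript with most sites, then the lowest accession number, gave positions and regions; codon regions reach 100 nt on either side. Assignment and counting were tested on simulated sites. The members, lists and rules were chosen with earlier results of these data known. Coverage of replicates, in the part of the study's list held, was compared by chi-square at sites called in all 3 libraries with 10 or more reads in each. Since replicates differed by less than sampling noise, no p-value was computed; with 3 against 3 libraries an exact two-sided permutation test could not go below 0.1. Lack of overlap means that every library of a group lies beyond every library of the other, and is set beside the share of all genes or sites that do so.

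Genes named are the 6 members, the genes of the pathway lists with at least 3 distinct sites and the 5 genes most alike. Marker genes are examples, and Lpl, Cdx2, Sis, Apobec1 and A1cf were named after their values were seen. An item of the lists is not reported here. Sites named are the most-called of each member, those called in all 9 libraries, and the 3 largest differences in each direction among sites called in all 6; other sites were chosen after their values were seen. Alternatives were a score of at least 10, sites called in at least 2 or in all 3 libraries, sites with no other within 10 nt, the share of mRNA sites, 50 nt codon regions, the mean log2 score, and each library left out.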

Additional observations from a re-analysis of the deposited data

How the results depend on the processing

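The 3 ratios of sites per library kept their direction under every alternative. For the sites per library of the 6 mRNAs, the log2 ratio of OGD/R 3 h to control was 0.42; it moved by more than the spread between libraries to 0.57 with sites called in all 3 libraries, to 0.66 with sites that had no other within 10 nt and to 0.13 as a share of mRNA sites. OGD/R 1.5 h against control stood at -1.05, and at -0.60 with isolated sites and -0.91 as a share. OGD/R 3 h against OGD/R 1.5 h stood at 1.47, and at 1.27 and 1.04 under the same settings. With isolated sites, the share called in all 3 libraries was 28.9% for control and 33.3% for OGD/R 3 h. The share in the coding sequence, 3.00 percentage points higher in OGD/R 3 h than in control but within the spread, turned to -5.13 with sites called in all 3 libraries and to -5.85 with isolated sites. The log2 ratio of median scores, -0.32 and also within the spread, was -0.74 with scores of at least 10, -0.76 with sites called in all 3 libraries and -1.21 with isolated sites, and as a mean log2 score the difference turned to 0.14. The ratio pools genes of unlike scores. By gene, library medians of OGD/R 3 h lay above control without overlap in Apoa1 (994 to 1000 against 569.5 to 655) and Apoa4 (430 to 576 against 96 to 152.5). The medians of all mRNA sites did so too (11 to 12 against 9 to 10). In Apob and Mttp the library medians overlapped. The causes were not tested. Leaving out each library in turn gave 0.38 to 0.47, -1.10 to -1 and 1.42 to 1.52 for the log2 ratios of sites, 1.79 to 4.44 percentage points for the coding sequence and -0.43 to -0.18 for the scores. Of the differences in sites per library of single genes, Apoa4 turned, from -5.67 sites in OGD/R 3 h against control to 1 with sites called in all 3 libraries. Apob, at -2.33 sites in OGD/R 1.5 h against control and with overlap, stood at 2 with isolated sites. Mttp, at -0.33 sites in the same comparison and also with overlap, turned under 3 settings. It stood at 0.33 with sites called in at least 2 libraries, at 1 with sites called in all 3 and at 0.17 without control replicate 2. No paired analysis was possible because the libraries of a group were counted as 1 sample and no test between groups was run. Depth is unknown, so that absence from a list cannot be told apart from shallow coverage.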
